A study of Mus musculus with 12 samples.

Results

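The collagens, laminins, matrix proteins, matrix enzymes and enzyme inhibitors of the thymus were examined as a list of 40 genes drawn up by function, of which 39 were measured. Fbn1 had no probe set annotated with a single symbol and was not analysed here. Each of the 39 genes had 1 such probe set, out of 19938 genes so named on the array. RNA came from the epithelium/stroma of thymi of untreated pups of the FCG mouse model at day 7 after birth, on a C57BL/6J background, and was hybridised to 12 Affymetrix mouse 1.0 ST arrays. In these mice Sry, the testis-determining gene, is missing from the Y chromosome and is carried as a transgene on an autosome, so that the gonads and the sex chromosomes are inherited apart. The 3 XXF arrays were from XX pups without the transgene and with ovaries, and the 3 XYF arrays from pups with ovaries that carry the Y chromosome lacking Sry. The 4 XXM arrays were from XX pups with the Sry transgene and testes, and the 2 XYM arrays from pups with testes that carry both that Y chromosome and the transgene. Thymocytes had been pressed and washed out of the tissue before RNA extraction, and the sources used here do not say whether each array held a single pup, so that p-values measure the spread between arrays, which may be technical. Arrays are named by genotype and the array number of the labels, as in XXM 6.

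The extracellular matrix is the protein scaffold that cells secrete around themselves. Fibroblasts and other mesenchymal cells make most of its fibrous part, built of collagen fibrils, microfibrils and elastic fibres, while epithelium, endothelium and muscle help to lay down basement membranes, thin sheets of type IV collagen, laminins, nidogens and perlecan. In the thymus this scaffold forms the capsule, the septa, the sleeves of the blood vessels and the sheet on which epithelial cells rest, and it holds the growth factors and adhesion sites that migrating thymocytes meet.

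The values are linear intensities, and a log2 difference is fitted to log2 intensities, with genotypes weighted equally in the comparisons of gonadal sex and of chromosome complement. The exact permutation tests compare plain means of log2 intensities over arrays, which can differ from the fitted value. Array medians lay between 327.5 and 345.5. Signals of 38 of the 39 genes exceeded, on average over the arrays, 309.5, which is the 95th percentile of signals from 1035 probe sets of olfactory receptors, genes largely silent outside the nose. The exception was Lox, with a mean of 307.4. Xist and Sry matched the labels on all arrays. Xist lay between 8505 and 9884 where the label was XX (n = 7) and between 40.0 and 79.9 where it was XY (n = 5). Sry lay between 2524 and 2836 in pups with testes (n = 6) and between 415.8 and 564.5 in pups with ovaries (n = 6). Markers of thymic epithelium were measured (12 of 13 above the olfactory reference), as were those of thymocytes (18 of 18), endothelium (10 of 10), macrophages (8 of 8) and fibroblasts (7 of 12 genes that are not matrix members). That reference lies under every array median, and Sry exceeded it in pups with ovaries, which lack the gene. A signal above it therefore does not by itself show expression. Thymocyte markers stayed far above it after the washing, with sums over 18 genes of 53621 to 61562 on the 12 arrays. The sums of 13 epithelial markers were 31981 to 41058. The RNA was thus not that of stroma alone. The brightest marker of each list had a mean signal of 8466 (epithelium), 5736 (thymocytes), 2210 (endothelium), 794.3 (macrophages) and 1780 (fibroblasts). The fibroblast value was that of Dpp4, and the part of other cells in it was not tested. Fstl1, of the same list, had a mean of 1713.

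A pair of arrays, XXM 6 and XXM 10, stood apart. Genes of heart muscle, chosen after the values were seen, had a summed signal of 12496 on XXM 6 and 59586 on XXM 10 and of 2113 to 2909 on the other 10 arrays. Among them Nppa, which encodes atrial natriuretic peptide, had a signal of 10150 on XXM 10 and of 197.4 to 265.3 elsewhere, and Myh6, a heart myosin, had 9909 on XXM 10, 1590.0 on XXM 6 and 117.1 to 197.6 elsewhere. XYF 12 also stood apart. The summed signal of 7 genes of bone, chosen in the same way, was 3432 on XYF 12 and 2104 to 2307 on the other arrays, and Ctsk, the collagen-degrading protease of bone-resorbing cells, had a signal of 856.1 there and 244.2 to 291.0 elsewhere. XYF 4 had the highest summed signal of 10 endothelial markers, 15012 against 10130 to 12769 on the other arrays. For the genes described under gonadal sex and chromosome complement, differences that moved by more than 1.5 times without XXM 6 and XXM 10 are given both ways.

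**Figure D1:**
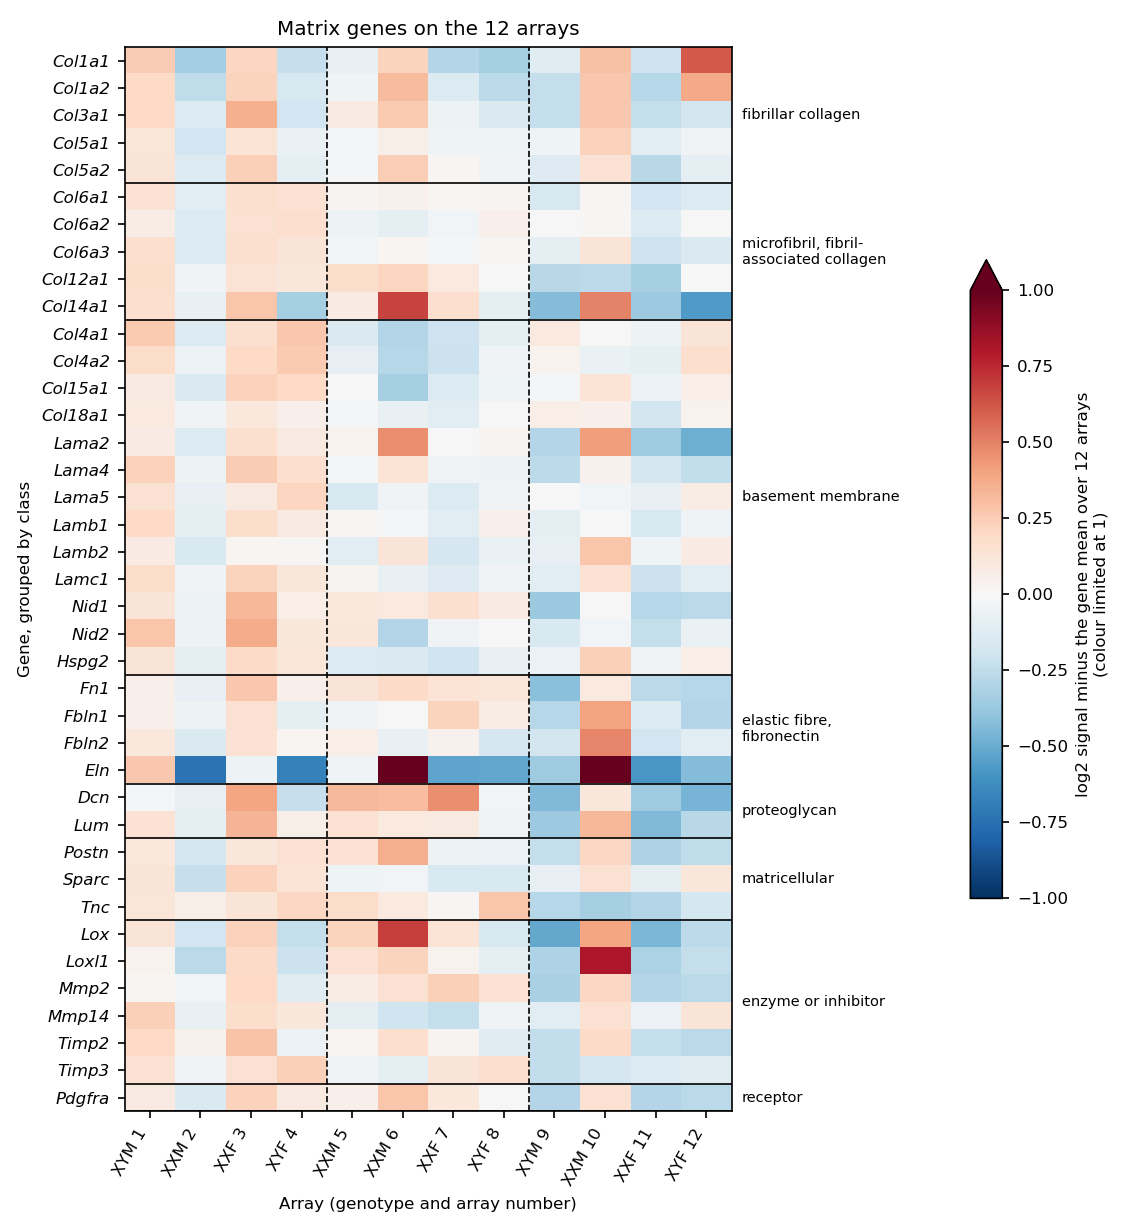
Each row is 1 of the 39 matrix genes and each column an array. Colour gives the log2 signal minus the mean of that gene over the 12 arrays (red above, blue below, limited at 1), solid lines part the classes and dashed lines the array number sets 1 to 4, 5 to 8 and 9 to 12. Eln is deepest red on XXM 6 and XXM 10, Col1a1 is red on XYF 12, and XXM 2, XYM 9 and XXF 11 are blue over most rows.

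The fibrillar collagens, which assemble into the load-bearing fibrils of connective tissue, were the first class. The subunits of type I collagen, Col1a1 and Col1a2, had signals of 1799.9 to 3496 and 1772 to 2807 over the 12 arrays. Col3a1, the chain of the finer type III fibrils, ran from 1587 to 2402. The type V chains, which help to start fibrils and limit their width, ran from 480.5 to 640.7 for Col5a1 and from 349.2 to 500.4 for Col5a2. On XYF 12 both type I chains were at their highest, Col1a1 at 3496 and Col1a2 at 2807, with the next highest arrays at 2791 and 2679.7. Col3a1 on the same array was at 1653, below its median over the arrays of 1754. Taken as log2 deviations from each gene's mean, Col1a1 lay 0.80 and Col1a2 0.56 above Col3a1 on XYF 12, and no array had a larger gap for either pair. The summed signal of the bone genes, given above, was also highest on XYF 12. On XYM 1, XXF 3, XXM 6 and XXM 10, where Col1a1 was at 2650 to 2791, that sum was 2104 to 2229. Of the 7 bone genes 3 had a mean signal above the olfactory reference. The part of bone in the gap on XYF 12 was not tested.

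Promoter windows of RefSeq genes, from 250 bases before to 50 bases after the annotated start, were held for 26 of the 40 listed genes in the table used here (build GRCm38.p6). The pair of collagen genes that parted on XYF 12 and that had such a window, Col1a2 and Col3a1, is printed 5′ to 3′ along the gene, with the letters of 3 common promoter motifs, matched on either strand, in capitals. The first motif was the CCAAT box, by its own letters. The GC box was searched as GGGCGG in the same windows. For the remaining motif, known as the box of the TATA-binding protein, the letters were TATAAA on either strand. Both genes lie on the plus strand.
Col1a2 promoter, chr6:4505368-4505667: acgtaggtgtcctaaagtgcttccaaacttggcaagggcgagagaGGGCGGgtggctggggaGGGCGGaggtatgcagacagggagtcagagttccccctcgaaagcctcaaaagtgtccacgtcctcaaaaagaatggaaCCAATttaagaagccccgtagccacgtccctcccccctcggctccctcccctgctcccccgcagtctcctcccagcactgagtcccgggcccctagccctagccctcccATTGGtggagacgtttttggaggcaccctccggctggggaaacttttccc
Col3a1 promoter, chr1:45311288-45311587: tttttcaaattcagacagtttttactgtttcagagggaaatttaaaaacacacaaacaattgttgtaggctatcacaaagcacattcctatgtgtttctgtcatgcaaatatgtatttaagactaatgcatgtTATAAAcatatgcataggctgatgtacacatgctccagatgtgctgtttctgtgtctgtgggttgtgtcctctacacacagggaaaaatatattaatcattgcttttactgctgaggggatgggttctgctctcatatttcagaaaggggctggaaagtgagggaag
The Col1a2 window held 2 CCAAT boxes and 2 GC boxes with 61.0% of G and C. The Col3a1 window held 1 TATA box and none of the other motifs, with 37.7% of G and C. Of all 32851 windows, 37.4% held a CCAAT box, 35.7% a GC box and 13.6% a TATA box, and of the 31 windows of matrix genes 9 held the first, 20 the second and 4 the third. A match describes the letters and not a site in use.

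**Figure D2:**
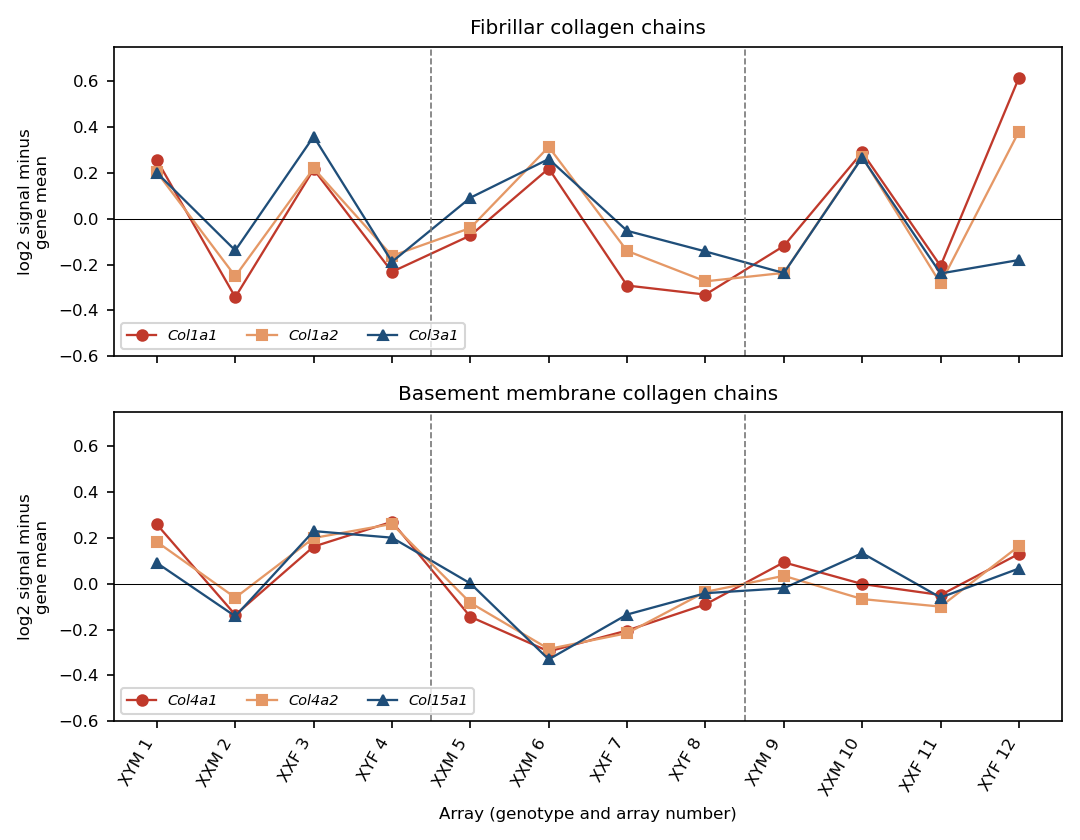
Log2 signal minus the gene mean on each of the 12 arrays for Col1a1, Col1a2 and Col3a1 (upper panel) and for Col4a1, Col4a2 and Col15a1 (lower panel), with dashed lines between the array number sets. The type I chains part from Col3a1 on XYF 12, while Col4a1 and Col4a2 stay within 0.08 of each other on every array.

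Type VI collagen forms beaded microfibrils around cells, and types XII and XIV attach to the surface of collagen fibrils. The 3 type VI chains varied little, with signals of 965.2 to 1231 for Col6a1, 908.6 to 1125 for Col6a2 and 682.3 to 886.2 for Col6a3. Over all 741 pairs of matrix genes, Col6a1 and Col6a3 were the closest in their deviations across arrays, with a mean gap of 0.034 on the log2 scale against a median of 0.15 over the pairs. Col12a1 ran from 536.2 to 781.9. Col14a1 ran more widely, from 562.4 to 1333, with its highest signals on XXM 6 and on XXM 10 (1175).

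Basement membrane genes made up the class with the most members, 13. The type IV chains had signals of 1277 to 1891 for Col4a1 and 920.9 to 1345 for Col4a2, and both were highest on XYF 4 and lowest on XXM 6. Their deviations differed by 0.045 on average and by at most 0.076 on any array. Col15a1 and Col18a1, whose products sit at the outer face of basement membranes, ran from 951.8 to 1403 and from 409.3 to 499.3. Col18a1 was the steadiest of the 39 genes, with an SD of 0.088 over the arrays on the log2 scale. The laminin chains ran from 390.6 to 756.3 for Lama2, the chain known from muscle, from 629.7 to 898.6 for Lama4, the chain of vessel walls, and from 434.7 to 562.7 for Lama5, which epithelium and endothelium use. The other laminin subunits ran from 1087 to 1399 for Lamb1, from 730.6 to 994.9 for Lamb2 and from 1115 to 1516 for Lamc1. The linker proteins nidogen 1 and nidogen 2 (Nid1 and Nid2) ran from 1132 to 1835 and 631.8 to 998.9, and Hspg2, which encodes the heparan sulphate proteoglycan perlecan, ran from 1389.7 to 1884. Lama2 was highest on XXM 6 (756.3) and XXM 10 (733.3), with 390.6 to 613.0 on the other arrays. On XXM 6 4 basement membrane genes, Col4a1, Col4a2, Col15a1 and Nid2, were at their lowest, and so were 5 of the 10 endothelial markers.

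Col4a1 and Col4a2 are neighbours transcribed in opposite directions, with annotated starts 21 bases apart. The starts are placed so that the annotated transcripts overlap at their 5′ ends, and each window reaches into the other gene. Their promoter windows share 78 bases and are printed because the pair moved together across the arrays. Col4a1 is given along its own minus strand and Col4a2 along the plus strand, with motifs in capitals as before.
Col4a1 promoter, chr8:11312777-11313076: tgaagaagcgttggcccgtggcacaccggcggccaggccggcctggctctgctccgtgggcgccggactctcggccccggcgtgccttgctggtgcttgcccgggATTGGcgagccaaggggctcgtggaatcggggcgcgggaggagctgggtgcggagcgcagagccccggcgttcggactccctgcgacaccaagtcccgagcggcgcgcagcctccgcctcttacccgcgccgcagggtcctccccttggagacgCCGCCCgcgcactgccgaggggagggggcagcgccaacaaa
Col4a2 promoter, chr8:11312555-11312854: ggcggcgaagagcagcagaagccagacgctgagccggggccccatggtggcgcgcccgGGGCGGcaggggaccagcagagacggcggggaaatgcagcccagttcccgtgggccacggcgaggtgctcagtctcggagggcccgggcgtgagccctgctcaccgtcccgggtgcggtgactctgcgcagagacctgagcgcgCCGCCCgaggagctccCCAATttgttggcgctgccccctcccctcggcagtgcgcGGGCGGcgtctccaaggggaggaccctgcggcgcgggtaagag
The Col4a1 window held 1 CCAAT box and 1 GC box, and the Col4a2 window 1 CCAAT box and 3 GC boxes. GC content was 74.0% and 73.7%, against a median of 52.7% over all windows. The other members that adjoin in the genome with no coding gene between them were Col3a1 with Col5a2, Col6a1 with Col6a2, and Dcn with Lum. Their mean gaps in deviation were 0.079, 0.064 and 0.15, so that Dcn and Lum, although neighbours, lay no closer than the median pair.

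Elastic fibres are cross-linked elastin on a microfibril frame, and they give recoil to arteries, heart valves and lung. Eln, the elastin gene, had signals of 804.4 to 1621 on 10 arrays, of 4568 on XXM 6 and of 4972 on XXM 10. The lower of these exceeded the highest of the other arrays 2.82 times. Among the 14449 named genes whose signal averaged at least 200, Eln ranked 8 by this gap and 23 by its SD over the 12 arrays, 0.90 on the log2 scale. Lox and Loxl1, whose enzymes cross-link elastin and collagen, were also above every other array on both: Lox had 481.2 and 392.4 against 209.9 to 350.3, and Loxl1 had 703.1 and 1057 against 485.0 to 687.9. In all, 7 of the 39 members (17.9%) were above all other arrays on both XXM 6 and XXM 10, namely Eln, Lox, Loxl1, Col14a1, Lama2, Lamb2 and Postn, against 2.58% of those named genes. Lamb2 had 897.9 and 994.9 there against 730.6 to 871.3, and Postn had 3281 and 2938 against 2055 to 2826. These arrays were picked out for such values, so the count is a description without a test. The summed heart muscle signal was also highest on these arrays, but it was 12496 on XXM 6 and 59586 on XXM 10. Nppa, among these heart muscle genes, was at 225.7 on XXM 6, within its range on the other arrays. The sum of 12 fibroblast markers was 9315 on XXM 6 and 8896 on XXM 10 against 6062 to 8613 elsewhere. Of the 12, 5 were above all other arrays on both, of which Twist2, Osr1 and Pdgfrl had mean signals under the olfactory reference. By the same count there were 2 of 7 adipocyte, 1 of 8 skeletal muscle, 0 of 9 pericyte and smooth muscle and 0 of 10 endothelial markers. The part of these cells in the high signals was not tested.

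The remaining partners of the class were fibronectin (Fn1), the adhesive protein that integrins assemble, at 2527 to 4069, and the fibulins, at 848.7 to 1380.1 for Fbln1 and 838.7 to 1347 for Fbln2. Fbln1 and Fbln2 peaked on XXM 10. The small leucine-rich proteoglycans, which coat collagen fibrils and regulate their growth, were Dcn (decorin) at 2113 to 4012 and Lum (lumican) at 520.0 to 892.9. Matricellular proteins modulate how cells attach to the scaffold. Among them Postn (periostin) ran from 2055 to 3281, Sparc (osteonectin) from 4901 to 6721 and Tnc (tenascin C) from 3691 to 5638. Of the proteases and their inhibitors, the gelatinase Mmp2 ran from 1381 to 2043 and its membrane-bound activator Mmp14 from 1288 to 1787. The tissue inhibitors ran from 1181 to 1738 for Timp2 and from 1553 to 2172 for Timp3. Pdgfra, the receptor that marks mesenchymal cells, ran from 463.7 to 688.8.

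Over the 12 arrays the matrix genes varied more than most genes. Their median SD was 0.19 on the log2 scale against 0.12 for the 14449 named genes, and 34 of the 39 lay above that second median, 21 above the 90th percentile and 12 above the 95th. The limit of 200 on the mean signal of the named genes lies under the olfactory reference. Genes were not matched by signal level, and the part of signal level in these counts was not tested. The matrix score, the mean deviation of the 39 genes on an array, was highest on XXM 10 (0.20), XXF 3 (0.20), XYM 1 (0.14) and XXM 6 (0.13) and lowest on XXF 11 (-0.23), XYM 9 (-0.20), XXM 2 (-0.13) and XYF 12 (-0.11). On the other arrays it lay between -0.04 and 0.03. Each extreme thus held arrays of at least 2 genotypes. XXF 3 had the highest signal for 12 members, and XXF 11, of the same genotype, the lowest for 15. These counts describe the members alone, since the same counts over all probe sets were not taken. By genotype the score was -0.02 ± 0.21 (SD, n = 3) in XXF, -0.04 ± 0.06 (SD, n = 3) in XYF, 0.06 ± 0.14 (SD, n = 4) in XXM and -0.03 ± 0.24 (SD, n = 2) in XYM, and the range of these means was narrower than the range of the arrays within each genotype. With bulk tissue, fewer matrix-producing cells and less matrix RNA per cell cannot be told apart.

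**Figure D3:**
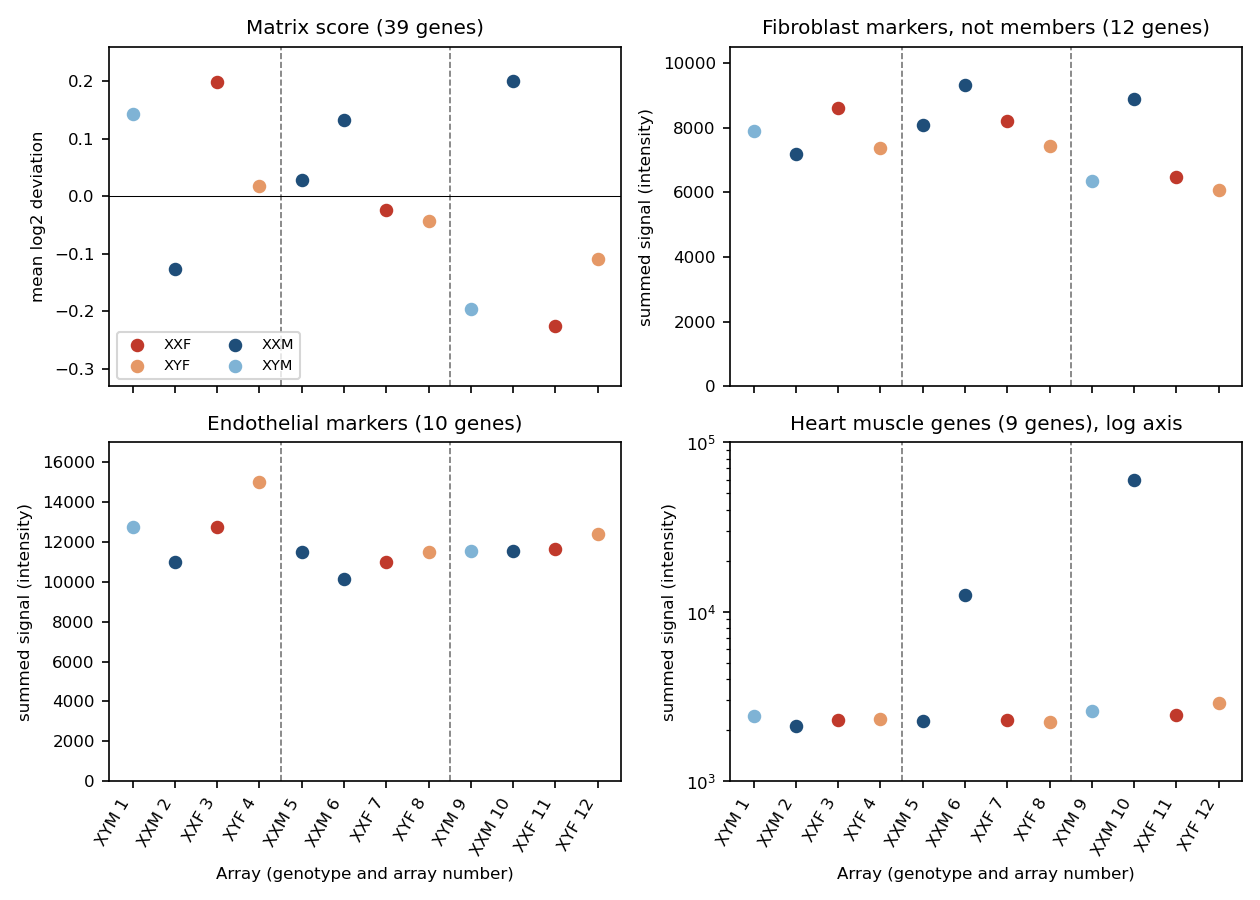
The matrix score by array (upper left, mean log2 deviation of 39 genes) beside the summed signals of 12 fibroblast markers that are not matrix members (upper right), 10 endothelial markers (lower left) and 9 heart muscle genes (lower right, log axis), coloured by genotype and with dashed lines between the array number sets. XXM 6 and XXM 10 rise above the other arrays in the heart muscle panel, and XYF 4 in the endothelial panel.

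The first comparison asked whether matrix genes differed with gonadal sex. In the limma fit 0 of the 39 members passed an adjusted p of 0.05, beside 0.00281% of all 35556 probe sets, and 0 had an unadjusted p under 0.05, beside 3.03% of probe sets. The median log2 difference, males minus females, was 0.02 over the members (22 above 0 and 17 below) and 0.0033 over all probe sets. Eln showed the largest difference. In gonadal females (6 arrays) its signal was 839.1 at the lowest, 936.0 at the median and 1298.5 at the highest, and in gonadal males (6 arrays) it was 804.4, 1465 and 4972. The groups overlapped, since the lowest male array lay under all of the female arrays. Mean signals were 2388 ± 1869.5 (SD, n = 6) in males and 983.7 ± 162.7 (SD, n = 6) in females. The log2 difference was 0.80 with a 95% confidence interval from -0.11 to 1.72 and an adjusted p of 0.98. The plain difference of mean log2 intensities was 0.93, with an exact two-sided permutation p of 0.0563. Taken within array number sets, males and females differed by 0.13 (arrays 1 to 4), 1.39 (5 to 8) and 1.27 (9 to 12), of which the last 2 sets hold XXM 6 and XXM 10. Without these arrays the difference was 0.25 (unadjusted p = 0.19 by limma), and the 4 remaining male arrays had signals of 804.4 to 1621.

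The other members with the lowest p for gonadal sex differed less. Timp3, an inhibitor that stays bound to the matrix, had a signal of 1674 at the lowest, 2032 at the median and 2172 at the highest in females and of 1553, 1762 and 2045 in males, a log2 difference of -0.14 (95% confidence interval -0.34 to 0.07, adjusted p = 0.98). Col14a1 had 562.4, 724.5 and 1008 in females and 615.9, 909.5 and 1333 in males, a difference of 0.23 (-0.15 to 0.61, adjusted p = 0.98), which was 0.08 without XXM 6 and XXM 10, the highest arrays. For Col3a1 the values were 1587, 1675 and 2402 in females and 1589, 2074 and 2254 in males, with a difference of 0.13 (-0.14 to 0.39), or 0.05 without these arrays. Timp2, at 1181 to 1738 in females and 1202 to 1635 in males, had a difference of 0.10 (-0.12 to 0.33), or 0.07 without them. The XYM arrays moved these differences too. Without XYM 1 they were -0.24 for Timp3, 0.08 for Col14a1, 0.02 for Col3a1 and -0.0066 for Timp2, and without XYM 9 they were -0.04, 0.38, 0.23 and 0.22. The male and female ranges overlapped for all of these genes. Beside them, heart muscle genes were higher in males for 9 of 9 (median 0.88, with 0 past the adjusted threshold) and for 2 of 9 without XXM 6 and XXM 10 (median -0.03), and endothelial markers were lower for 10 of 10 (median -0.10, 0 past it, and -0.08 without these arrays). Skeletal muscle markers were higher in males for 8 of 8 (median 0.08) and cartilage markers for 5 of 5 (median 0.08), 0 past it in either list. Without XXM 6 and XXM 10 the counts were 4 of 8 and 4 of 5. Of these markers, 3 of 8 and 1 of 5 had a mean signal above the olfactory reference. The part of these cell types in the differences was not tested.

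**Figure D4:**
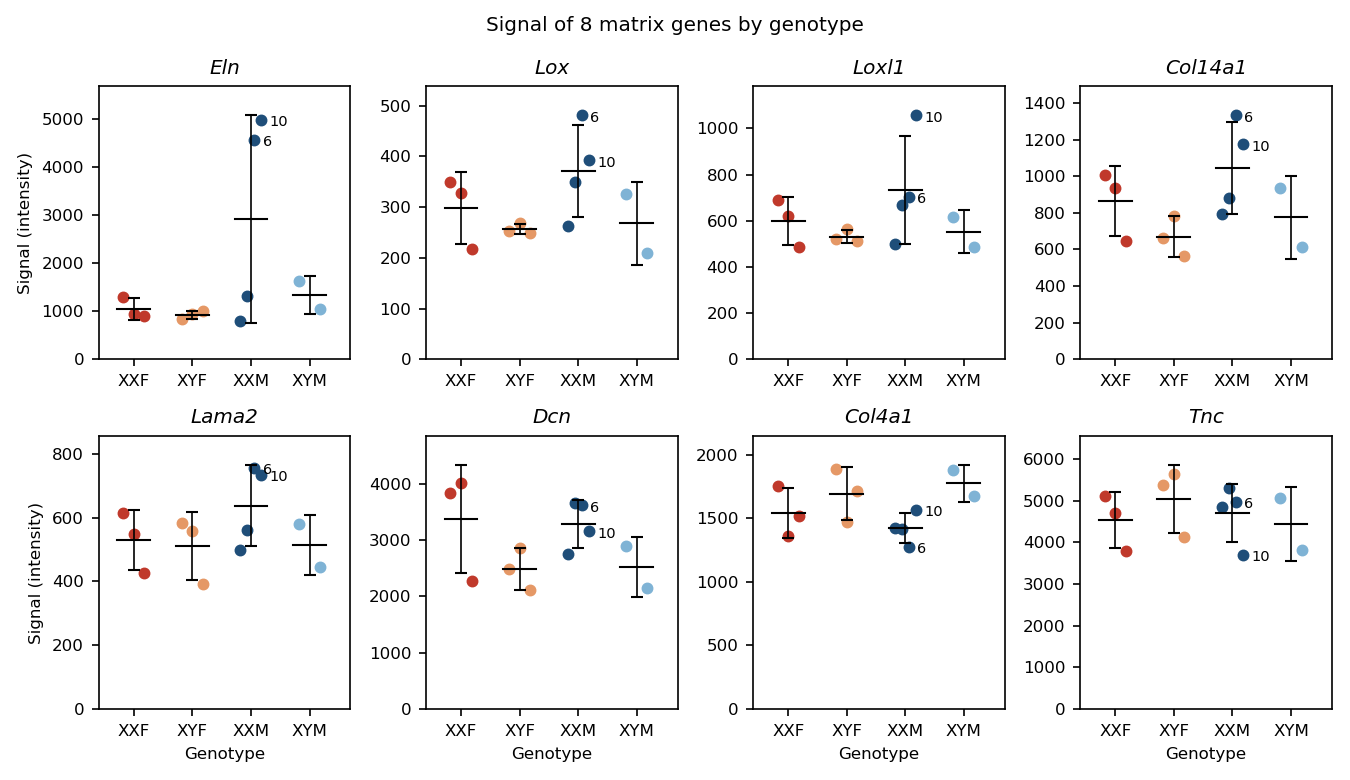
Signal of Eln, Lox, Loxl1, Col14a1, Lama2, Dcn, Col4a1 and Tnc by genotype (linear axis from 0). Points are arrays, horizontal lines means and bars 1 SD over 3 XXF, 3 XYF, 4 XXM and 2 XYM arrays, with XXM 6 and XXM 10 numbered. The XXM mean of Eln is carried by these arrays, while the other XXM arrays sit among the other genotypes.

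The second comparison set the XY arrays against the XX arrays. Again 0 of the 39 members passed the adjusted threshold, beside 0.0366% of all probe sets, while 4 had an unadjusted p under 0.05, beside 2.55% of probe sets. Without XXM 6 and XXM 10 that number was 1, Col4a1. The median log2 difference, XY minus XX, was -0.01 over the members (18 above 0 and 21 below) and 0.0055 over all probe sets. Decorin gave the lowest p. Dcn had a signal of 2280 at the lowest, 3613 at the median and 4012 at the highest on the 7 XX arrays, and of 2151.9, 2113, 2485, 2861 and 2897 on the 5 XY arrays. The ranges overlapped through XXF 11 and XXM 2, the lowest XX arrays. Means were 3328 ± 629.0 (SD, n = 7) for XX and 2502 ± 374.0 (SD, n = 5) for XY, a log2 difference of -0.40 (95% confidence interval -0.74 to -0.06, adjusted p = 1.0, exact two-sided permutation p = 0.0328 for this gene alone, from plain means differing by -0.40). It was -0.28, -0.39 and -0.33 within arrays 1 to 4, 5 to 8 and 9 to 12, and -0.38 without XXM 6 and XXM 10. The value of arrays 5 to 8 rests on 1 XY array, and Dcn was taken for its low p on these same arrays. Col14a1 also lay lower, at 562.4, 664.3 and 937.3 (lowest, median and highest) in XY against 648.5, 936.4 and 1333 in XX, a difference of -0.39 (-0.77 to -0.01, adjusted p = 1.0), which was -0.25 without those arrays. The lowest difference of any member, named here after its value was seen, was that of Eln, at -0.46 (-1.37 to 0.46, adjusted p = 1.0 by limma), and it was 0.10 without XXM 6 and XXM 10, both of which are XX.

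The type IV collagen chains lay higher in XY. Col4a1 had signals of 1277 at the lowest, 1426 at the median and 1754 at the highest in XX, and of 1875 and 1672 on the XYM arrays and 1891, 1472 and 1715 on the XYF arrays. Its means were 1474 ± 156 (SD, n = 7) and 1725 ± 171 (SD, n = 5), a log2 difference of 0.23 (95% confidence interval 0.03 to 0.42, adjusted p = 1.0, exact two-sided permutation p = 0.0290), and 0.23 without XXM 6 and XXM 10. Col4a2, at 920.9, 1059 and 1289 (lowest, median and highest) in XX and 1095, 1257 and 1345 in XY, differed by 0.20 (0.01 to 0.39, adjusted p = 1.0, exact p = 0.0316) and by 0.17 without these arrays. Lama5, at 434.7, 456.8 and 515.4 in XX and 472.0, 510.5 and 562.7 in XY, differed by 0.14 (-0.01 to 0.29, adjusted p = 1.0, exact p = 0.0278). The XX and XY ranges overlapped for all of them, and the differences kept their sign within each array number set, at 0.25, 0.12 and 0.14 for Col4a1 and 0.15, 0.16 and 0.18 for Col4a2. These exact p-values are for single genes and were not adjusted, and the genes were taken for their low p.

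Cell type markers moved with the complement contrast as well. Endothelial markers lay higher in XY for 10 of 10 genes (median 0.14), their sums running from 11481 to 15012 in XY and from 10130 to 12768.5 in XX. Fibroblast markers that are not members lay lower for 9 of 12 (median -0.10), with sums of 6062 to 7888 in XY and 6474 to 9315 in XX. Thymocyte markers lay lower for 18 of 18 (median -0.11), with sums of 53621 to 55980 in XY, under the 56384 to 61562 in XX. Heart muscle genes lay lower for 9 of 9 (median -0.74), with sums of 2229 to 2909 in XY and 2113 to 59586 in XX. Without XXM 6 and XXM 10, both XX, they lay higher for 8 of 9 (median 0.11). Thymic epithelial markers lay higher for 11 of 13 (median 0.04), with sums of 34780.2 to 40115 in XY and 31981 to 41058 in XX. Cartilage markers lay higher for 5 of 5 (median 0.06) and bone genes for 7 of 7 (median 0.04). Of these, 1 of 5 and 3 of 7 had a mean signal above the olfactory reference, so one-sided counts also arose in lists mostly under it. In each of these lists 0 genes passed the adjusted threshold. An unadjusted p under 0.05 was seen for 1 endothelial, 1 epithelial, 3 fibroblast and 2 thymocyte markers, beside 2.55% of all probe sets. The part of cell makeup in the differences of Dcn, Col14a1, Col4a1 and Col4a2 was not tested.

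**Figure D5:**
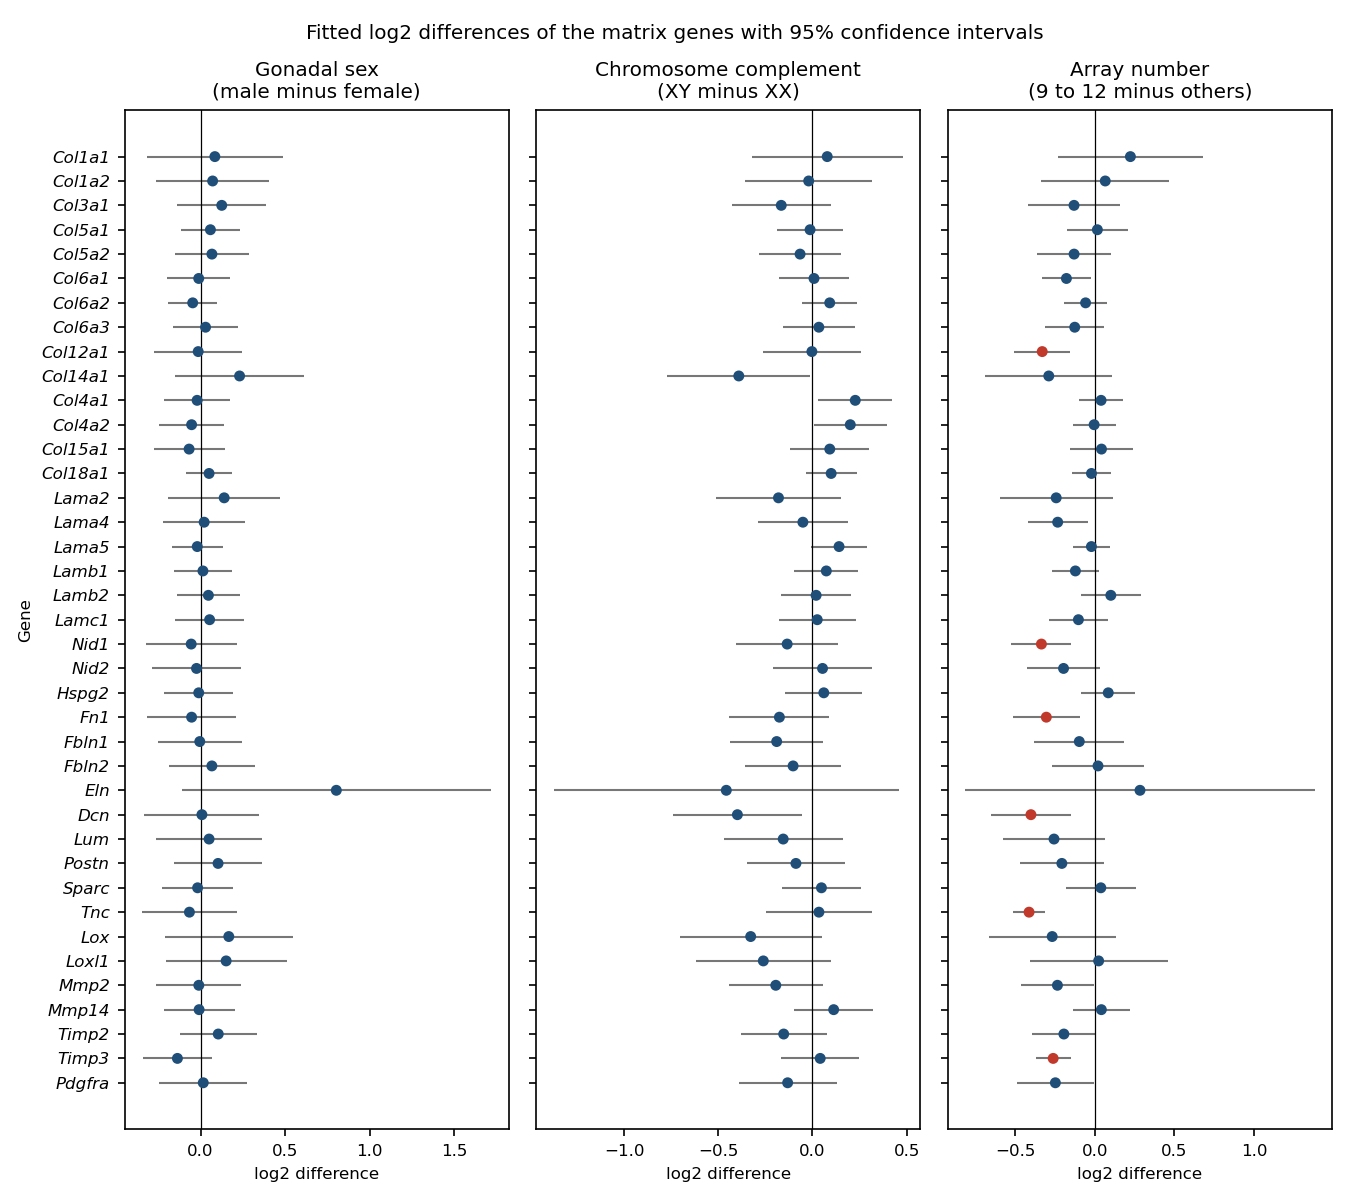
Fitted log2 difference of each of the 39 genes with its 95% confidence interval for gonadal sex (left), sex chromosome complement (middle) and arrays 9 to 12 against the others (right). Red points passed an adjusted p of 0.05 over all probe sets. All points are blue for sex and complement, and 6 are red on the right, all below 0.

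The interaction of the 2 factors was past the threshold for 0 members (0 with an unadjusted p under 0.05), beside 0% of all probe sets. The single genotype contrasts, which share groups, each called 0 members, beside 0.00281% of probe sets for XXM minus XXF, 0.00562% for XYM minus XYF, 0.0169% for XYF minus XXF and 0.0197% for XYM minus XXM. In these contrasts only Col4a1 had an unadjusted p under 0.05, for XYM minus XXM, with a log2 difference of 0.32 (1 of 39 members, beside 3.41% of probe sets). Eln differed by 1.11 between XXM and XXF, the largest difference of any member in a single contrast, with an adjusted p of 1.0 by limma, and by -0.0017 without XXM 6 and XXM 10. With array number set as a block, sex and complement again called 0 members each, and 1 member (Timp3, -0.13) and 3 members (Dcn, Col4a1 and Col4a2) had an unadjusted p under 0.05, beside 11.5% and 6.9% of probe sets, so that these counts are not results about the members.

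More probe sets differed between array number sets than between genotypes. Arrays were taken in the sets 1 to 4, 5 to 8 and 9 to 12, first drawn after the main axis of variation of these arrays was seen to follow array number, so that the counts describe these arrays and are not independent evidence. What the numbers stand for is not given in the sources used here. With genotype in the fit, 6 of the 39 members (15.4%) were lower on arrays 9 to 12, beside 10.8% of all probe sets, and 0 were higher, beside 15% of all probe sets. The count of 6 was 2 without XYM 1, XYM 9 or XXF 11, 3 without XYF 8 or XYF 12 and 10 without XXM 2. The share called lower was near that of the whole array and is not a result about the members. The median log2 difference was -0.13 over the members (27 below 0 and 12 above) and 0.05 over all probe sets. The F test of the 3 sets called 6 members, beside 30.7% of probe sets, and arrays 5 to 8 against arrays 1 to 4 called 0 members, beside 0.188% of probe sets (5 of 39 with an unadjusted p under 0.05, beside 28.8%). On arrays 9 to 12 lay the lowest signal of 27 of the 39 members. The share over all probe sets was not taken, so this count is not a result about the members.

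Tnc, which is induced where tissue is remodelled, had signals of 3816, 3691, 3798 and 4123 on arrays 9 to 12, all under the 4696 to 5638 of arrays 1 to 8. The log2 difference was -0.41 (SE 0.045, adjusted p = 0.0069 by limma). Timp3 was at 1553, 1644, 1674 and 1697, under the 1724 to 2172 of the others, a difference of -0.26 (SE 0.048, adjusted p = 0.012 by limma). These were the 2 members of 39 (5.13%) without overlap, beside 5.82% of all probe sets below in the same way. Dcn was at 2152, 3154, 2280.1 and 2113 against 2485 to 4012 (-0.40, adjusted p = 0.032). Nid1 was at 1132, 1459, 1201 and 1212 against 1407 to 1835 (-0.34, adjusted p = 0.024). In both the array that reached into the range of the others was XXM 10. Col12a1 (-0.33, adjusted p = 0.021) and Fn1 (-0.30, adjusted p = 0.042) completed the 6, and they were at 536.2 to 672.6 against 660.7 to 781.9 and at 2527 to 3600.2 against 3180 to 4069.

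XXM 10 belongs to arrays 9 to 12 and went against them for many members. Without XXM 6 and XXM 10, 10 of the 39 members (25.6%) were lower on arrays 9, 11 and 12, beside 2.24% of all probe sets. Of the 39, 36 lay below 0, with a median of -0.26, beside a median of 0.05 over all probe sets. The share of all probe sets below 0 was not taken in this fit. The 10 were Lama2 (-0.46), Col14a1 (-0.52), Nid1 (-0.45), Fn1 (-0.44), Fbln1 (-0.32), Tnc (-0.40), Timp3 (-0.32), Mmp2 (-0.40), Dcn (-0.55) and Pdgfra (-0.38). All 10 had an adjusted p between 0.0431 and 0.0469 by limma, just under the threshold. XXM 6 and XXM 10 were set apart because of high values, members among them. Leaving out XXM 10 thus lowers the late set for those members by construction, and the count is a description without a test. The exceptions above 0 were Col1a1 (0.19), Col1a2 (0.0008) and Lamb2 (0.02). With all 12 arrays, 5 of 13 thymic epithelial markers were called lower on arrays 9 to 12, beside 10.8% of probe sets. The counts were 2 of 12 for fibroblast, 2 of 8 for macrophage and 0 of 10 for endothelial markers. Counts near that share are not results about the markers. Summed epithelial signals were 31981 to 36020 on arrays 9 to 12 and 35298 to 41058 on arrays 1 to 8. The part of tissue makeup or handling in these shifts was not tested.

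Further genes of the matrix pathway were listed by function: 14 of collagen synthesis and processing, 25 other matrix proteins, 13 receptors and 12 other proteases and inhibitors were measured. In each list 0 genes passed the adjusted threshold for gonadal sex or for complement. For sex 0 had an unadjusted p under 0.05, beside 3.03% of all probe sets. For complement 3 other matrix proteins and 1 receptor had, beside 2.55%. The genes with the lowest p for sex included P4ha2, a subunit of prolyl hydroxylase, at 0.16, with a mean signal under the olfactory reference. Mfap4, which attaches to elastic fibres, was at 0.44, or 0.13 without XXM 6 and XXM 10. For complement they included Ogn, a small leucine-rich proteoglycan like decorin, at -0.61 (unadjusted p = 0.0065), and Itgb4, the laminin-binding integrin chain of epithelium, at 0.17 (unadjusted p = 0.015), with adjusted p-values of 1.0 for both by limma. Of all probe sets 10.8% were called lower on arrays 9 to 12 and 15% higher. In the same comparison 6 of 13 matrix receptors were called lower and 0 higher. Among the 6 were Cd44, the hyaluronan receptor, at -0.32, Dag1 (dystroglycan) at -0.24 and the integrin chain Itga1 at -0.24. Of 25 other matrix proteins 4 were called lower, with Efemp1, a fibulin, at -0.83 and Thbs2 (thrombospondin 2) at -0.40, and 5 higher, with Col8a1 at 0.27 and a mean signal under the olfactory reference. Of 12 other proteases and inhibitors 3 were called lower, with the aggrecanase Adamts5 at -0.47, and 1 higher (Mmp3, 0.24), and the mean signals of both were under that reference. Of 14 genes of collagen synthesis and processing 1 was called lower, the prolyl hydroxylase subunit P4ha1, at -0.15. Counts near the shares of all probe sets are not results about these lists.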

How the data were processed

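RNA of 12 thymic epithelium/stroma samples was hybridised to Affymetrix mouse 1.0 ST arrays. The deposited values are linear intensities, which the authors made with Expression Console 1.1 and PLIER per the submitters' processing notes, whereas the methods name RMA with quantile normalization. The genome build of that step is not given in the sources used here. All 35556 probe sets were taken as deposited, of which 21789 carried 1 gene symbol, 1621 several and 12146 none, and their log2 values entered linear models of limma 3.58.1 (R 4.3.3). Each fit held the 4 genotypes (gonadal sex, chromosome complement and their interaction), and p-values were adjusted over all probe sets by Benjamini-Hochberg at a threshold of 0.05. Fits of the array number sets also held genotype. Single genes were tested by exact two-sided permutation of arrays (924 groupings for sex, 792 for complement). The fit was tested on simulated data.

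A gene was represented by its brightest probe set with a single symbol over the 12 arrays. The 5 members with the lowest p for each genotype factor and the members called between array number sets are described with their values. The members and all gene lists were chosen with earlier results of these data known, and the bone and heart muscle lists after their values were seen. Alternatives were renewed quantile normalization, an offset of 16, a mean signal of 200 or higher, probe sets with 1 symbol, the mean over probe sets, trend and robust moderation, array weights, each array left out, array number sets as a block, an additive model, the two-way model of the methods without moderation and, chosen after seeing the data, the fit without XXM 6 and XXM 10. The small number of arrays limits the precision. Tables were made with pandas 2.3.3 and numpy 2.4.6 in Python 3.11.15.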

Additional observations from a re-analysis of the deposited data

Results flagged for a closer look

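Of 200 groups, of signals of members or of the matrix score, 13 held an array that lay far from the rest of its group. Chance alone gives about 1 in 20, so the count is near that rate and is not a result about the members. XXF 3 gave 4 of the 13. Among gonadal females it had Col3a1 at 2402 (others 1587 to 1806), Col5a1 at 600.8 (others 509.97 to 534.0) and Eln at 1298.5 (others 839.1 to 996.6), and among XX arrays Col4a2 at 1289 (others 920.9 to 1076). XYM 1 gave another 4. Among XY arrays it had Col3a1 at 2153 (others 1589 to 1697), Col5a1 at 596.5 (others 521.9 to 534.0) and Eln at 1621 (others 839.1 to 1051), and among gonadal males Lamb1 at 1399 (others 1141 to 1225).

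XXM 10 gave 3. It had Hspg2 at 1884 (others 1449.9 to 1500.5) and Fbln1 at 1380.1 (others 1005 to 1046) among XXM arrays, and Loxl1 at 1057 (others 485.0 to 703.1) among XX arrays. XXM 6 had Col4a2 at 920.9 among XXM arrays (others 1059 to 1076), and XXF 11 had Col12a1 at 536.2 among gonadal females (others 672.6 to 740.8). The groups share arrays, and the causes were not tested.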

How the results depend on the processing

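Gonadal sex, chromosome complement and their interaction called 0 members under every alternative that was run. The 6 members called between array number sets became 3 under renewed quantile normalization, where Dcn, Nid1 and Fn1 no longer passed, and 10 without XXM 6 and XXM 10. With each array left out in turn the count ran from 2 to 10: it was 2 without XYM 1, XYM 9 or XXF 11, 3 without XYF 8 or XYF 12 and 10 without XXM 2. Tnc and Timp3 passed in all of these fits. Between the fits without XYM 1 and without XYM 9 the sex differences ran from -0.0066 to 0.22 for Timp2, the only change of direction, from -0.24 to -0.04 for Timp3, from 0.08 to 0.38 for Col14a1 and from 0.02 to 0.23 for Col3a1. Leaving out a XYM array leaves 1 array of that genotype, which is assumed to vary like the others. No paired analysis was possible because the genotypes share no replicate number in the labels, and array number sets stood as a block instead. The causes of these changes were not tested.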

Other observations

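Of 25 matrix proteins outside the members 5, and of 12 fibroblast markers 5, stood above the other 10 arrays on both XXM 6 and XXM 10, against 0 of 13 matrix receptors and 0 of 14 genes of collagen synthesis. The examples were chosen after their values were seen. Mfap4, a microfibril-associated protein of elastic fibres, had signals of 1364 and 2509, against 888.8 at the highest elsewhere. Fbln5, a fibulin needed for elastic fibre assembly, had 1014 and 823.2 against 720.1. Bgn (biglycan), a small leucine-rich proteoglycan, had 2421 and 2867 against 2291, and Dpt (dermatopontin), a fibril-binding protein, had 1356 and 1658 against 1232. Osr1, a transcription factor of embryonic mesenchyme, had 462.0 and 681.8 against 348.2, with a mean signal under the olfactory reference. Not all genes of these kinds did so: Cd248, a fibroblast marker, was lowest on XXM 6 at 674.4. Ltbp4, a partner of elastic fibres, was highest on XXM 10 at 1643 but had 878.7 on XXM 6, under the 954.1 of XYM 1. These values were not tested.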
